A study of Mus musculus with 10 samples.

Results

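The step from mitotic clonal expansion to differentiation was examined in solvent-treated 3T3-L1 cells, by comparing the N6-methyladenosine (m6A) peaks listed for DMSO MCE with those listed for DMSO Diff. Peaks of the lists were taken as shared when they lay on the same chromosome and strand and their spans from start to end had at least 1 base in common. The comparison covered 8072 peaks, 5128 of them in DMSO MCE and the rest in DMSO Diff, out of 13965 in the 4 lists used. Of the DMSO MCE peaks 1346 were shared and 3782 were not. Of the DMSO Diff peaks 1358 were shared and 1586 were not.

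m6A is written on mRNA by a complex around METTL3 and METTL14, removed by the demethylases FTO and ALKBH5, and read by YTH-domain proteins that act on the decay, splicing and translation of the transcript. It collects near stop codons and in long exons, at adenosines within the consensus that has GGAC as its common core. In 3T3-L1 cells, growth-arrested preadipocytes given a hormone cocktail re-enter the cell cycle, the phase called mitotic clonal expansion (MCE), then leave it, remodel their matrix and build the lipid-handling program of fat cells.

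3T3-L1 is a mouse fibroblast line that forms adipocyte-like cells. In methylated RNA immunoprecipitation and sequencing (MeRIP-seq), fragmented RNA pulled down with an m6A antibody (the IP) is compared with a portion kept aside before the pull-down (the input). Both groups were given MDI medium (isobutylmethylxanthine, dexamethasone and insulin) and DMSO from day 0 to day 3; DMSO MCE was collected on day 3, and DMSO Diff on day 10 after further medium with 10 µg/ml insulin. Each had 1 IP and 1 input, so there was no replicate error to judge a difference by and no p-value is given. Ranges in brackets are 95% Wilson intervals, and reflect only the number of peaks counted. The lists of DMSO Pre (preadipocytes, day 0 by the methods of the study) and rhein MCE (20 µM rhein in place of the solvent alone from day 0 to day 3, collected on day 3) served as points of reference which the sharing rule did not use. The labels give DMSO Pre the same treatment from day 0 to day 3 and 10 µg/ml insulin as the other groups. That conflicts with a collection on day 0, so the treatment of DMSO Pre was unclear. The labels name the source of each library with a number of its own (3T3-L4 and 3T3-L5 for DMSO MCE, 3T3-L2 and 3T3-L3 for DMSO Diff), whereas the methods of the study name 3T3-L1 throughout. Each peak had a single value, treated here as a score whose height ranks the peaks within a list, and no read number, so that depth was unknown. A missing peak can mean no m6A, little RNA or few reads, and in bulk cells fewer modified cells and less modification per cell cannot be told apart. The labels call the DMSO Diff cells mature adipocytes, yet 0 of 12 mature adipocyte markers, Adipoq, Fabp4 and Pparg among them, had a peak in either list; of 12 preadipocyte markers, 5 had one. Peaks do not measure expression, and the label was not tested further.

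Examples of the classes are shown first, since they carry the motif that the classes differ in. They are peaks lying wholly in the coding sequence (CDS), of at most 150 exonic bases and holding GGAC, with high scores in their class (for shared peaks, the best lower rank of the pair, with the DMSO MCE span printed). GGAC is in capitals, sequences run 5′ to 3′ along the transcript with introns removed, and coordinates are of GRCm38 (mm10) with GENCODE M21 transcripts.
Son, shared, chr16:91658915-91659014, plus strand: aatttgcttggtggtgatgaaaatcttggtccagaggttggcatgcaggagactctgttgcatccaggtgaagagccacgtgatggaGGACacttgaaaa
Bclaf1, shared, chr10:20325426-20325475, plus strand: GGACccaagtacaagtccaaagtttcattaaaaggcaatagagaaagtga
Ube3a, shared, chr7:59303758-59304880, plus strand: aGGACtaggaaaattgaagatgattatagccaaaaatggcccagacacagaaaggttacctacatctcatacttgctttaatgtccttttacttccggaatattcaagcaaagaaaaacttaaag
Ahnak, DMSO MCE only, chr19:9008489-9008613, plus strand: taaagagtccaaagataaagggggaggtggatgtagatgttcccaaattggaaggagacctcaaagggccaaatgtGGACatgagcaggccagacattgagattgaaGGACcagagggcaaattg
Eif3a, DMSO MCE only, chr19:60763252-60764068, minus strand: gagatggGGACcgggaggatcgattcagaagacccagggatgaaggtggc
Rtn4, DMSO MCE only, chr11:29693297-29693446, plus strand: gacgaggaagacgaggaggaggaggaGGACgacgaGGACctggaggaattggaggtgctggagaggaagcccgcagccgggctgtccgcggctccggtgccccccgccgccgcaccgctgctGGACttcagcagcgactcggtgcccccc
Sned1, DMSO Diff only, chr1:93280515-93280589, plus strand: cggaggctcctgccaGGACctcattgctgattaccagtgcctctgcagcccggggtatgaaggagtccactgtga
Lnpep, DMSO Diff only, chr17:17578733-17578807, minus strand: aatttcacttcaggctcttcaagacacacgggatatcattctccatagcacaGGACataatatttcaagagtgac

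The shared examples lay in Son, which encodes a splicing cofactor (exon 3 of 12), in Bclaf1, which encodes a transcription and splicing factor (exon 5 of 13), and in the ubiquitin ligase gene Ube3a (exons 12 to 13 of 13). In DMSO Diff the partner spans were chr16:91658890-91659139, chr10:20325376-20325525 and chr7:59304831-59304905. Son had a score of 9.75 in DMSO MCE and 18.7 in DMSO Diff, Bclaf1 9.65 and 17.6, and Ube3a 8.97 and 10.3. The DMSO MCE examples without a partner lay in exon 5 of 5 of Ahnak, a giant scaffold protein gene (score 23.3), in exons 20 to 21 of 22 of the initiation factor gene Eif3a (score 13.7) and in exon 1 of 9 of the reticulon gene Rtn4 (score 13.6). Those of DMSO Diff lay in exon 17 of 31 of Sned1, which encodes an extracellular matrix protein (score 36.5), and in exon 2 of 18 of Lnpep, the insulin-regulated aminopeptidase gene (score 30.5). Rtn4 held GGAC 3 times, Ahnak 2 times and the others 1 time.

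The first question was how much of the peak set the stages had in common. The shared peaks made up 26.2% (interval 25.1 to 27.5) of DMSO MCE and 46.1% (44.3 to 47.9) of DMSO Diff. They formed 1432 overlapping pairs, of which 218 had identical spans, and over these pairs the scores had a Spearman rho of 0.305, a description across peaks that share their libraries. With DMSO MCE cut at random to as many peaks as DMSO Diff held, 750 of its peaks (25.5%, 23.9 to 27.1) were shared and 2194 were not. In DMSO Diff 765 peaks (26.0%, 24.4 to 27.6) then had a partner and 2179 did not. The share of DMSO Diff with a partner thus depended on the length of the list it was compared with. With as many of the highest-scoring DMSO MCE peaks kept in place of random ones, the shares were 38.9% and 40.0%.

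Whether a DMSO MCE peak had a partner went with its score. In the lowest quintile of that list by score 6.24% (4.92 to 7.89) of the peaks were shared, and in the highest quintile 62.5% (59.5 to 65.4). In DMSO Diff the corresponding shares were 41.0% (37.1 to 45.0) and 51.4% (47.4 to 55.5), so the peaks without a partner there were spread over the whole range of scores. The median score of DMSO MCE was 9.49 for shared peaks and 6.85 for the rest, and that of DMSO Diff was 8.50 and 8.04. Sharing also went with length in both lists: of the peaks with 50 exonic bases or fewer, 12.2% (10.4 to 14.3) were shared in DMSO MCE and 30.2% (26.7 to 33.9) in DMSO Diff, and of those with more than 200 and up to 300 bases 47.4% (44.2 to 50.7) and 74.4% (70.0 to 78.5). A longer span meets another more easily, which the rule itself brings about.

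**Figure D1:**
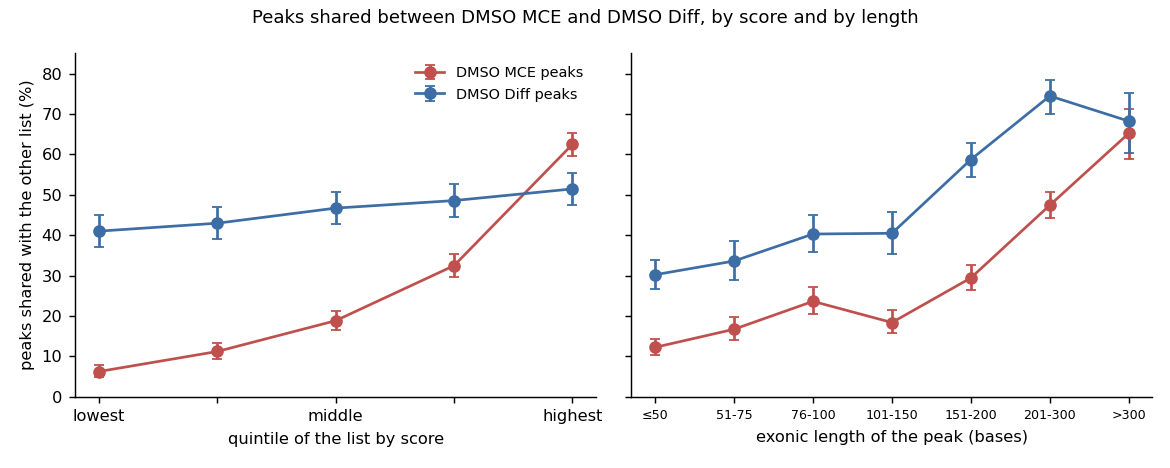
Share of peaks with a partner in the other list (vertical axis, %) by quintile of the list by score (left) and by exonic length in bases (right), with 95% Wilson intervals as bars. The DMSO MCE line climbs from 6.24% to 62.5% over the score quintiles, and the DMSO Diff line from 41.0% to 51.4%.

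Most peaks without a partner lay away from those of the other stage. Of the 3659 DMSO MCE peaks without a partner that could be placed on a transcript, 1116 (30.5%) lay on a gene with a DMSO Diff peak on the same transcript, with a median gap of 600 bases of transcript to the nearest, and 130 lay within 50 bases. Of 1509 such DMSO Diff peaks, 718 (47.6%) lay on a transcript with a DMSO MCE peak, at a median of 484.5 bases, and 124 lay within 50. In Alkbh5 a DMSO MCE peak on chromosome 11 ended at 60555475 and a DMSO Diff peak began at 60555476, so that neighbours without a common base count as unshared.

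By gene, 3471 genes had a peak in the exons of a transcript in at least 1 of the lists. Of these, 1757 (50.6%) had peaks in DMSO MCE only, 1208 (34.8%) in both and 506 (14.6%) in DMSO Diff only. Among the genes with peaks in both, 982 (81.3%) had at least 1 shared peak and 226 had peaks at different places only. Single peaks made up most of the genes found at 1 stage, 72.1% of those in DMSO MCE only and 76.9% of those in DMSO Diff only. After the random cut, 2860 genes remained, 1146 (40.1%) in DMSO MCE only, 885 (30.9%) in both and 829 (29.0%) in DMSO Diff only. Of the genes with peaks in both lists, 412 had more in DMSO MCE, 592 had equal numbers and 204 had more in DMSO Diff; after the cut these were 183, 461 and 241. These shares over all genes are the background for the functional lists below, and the plot of the gene lists shows each of them for the full lists and after the cut.

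**Figure D2:**
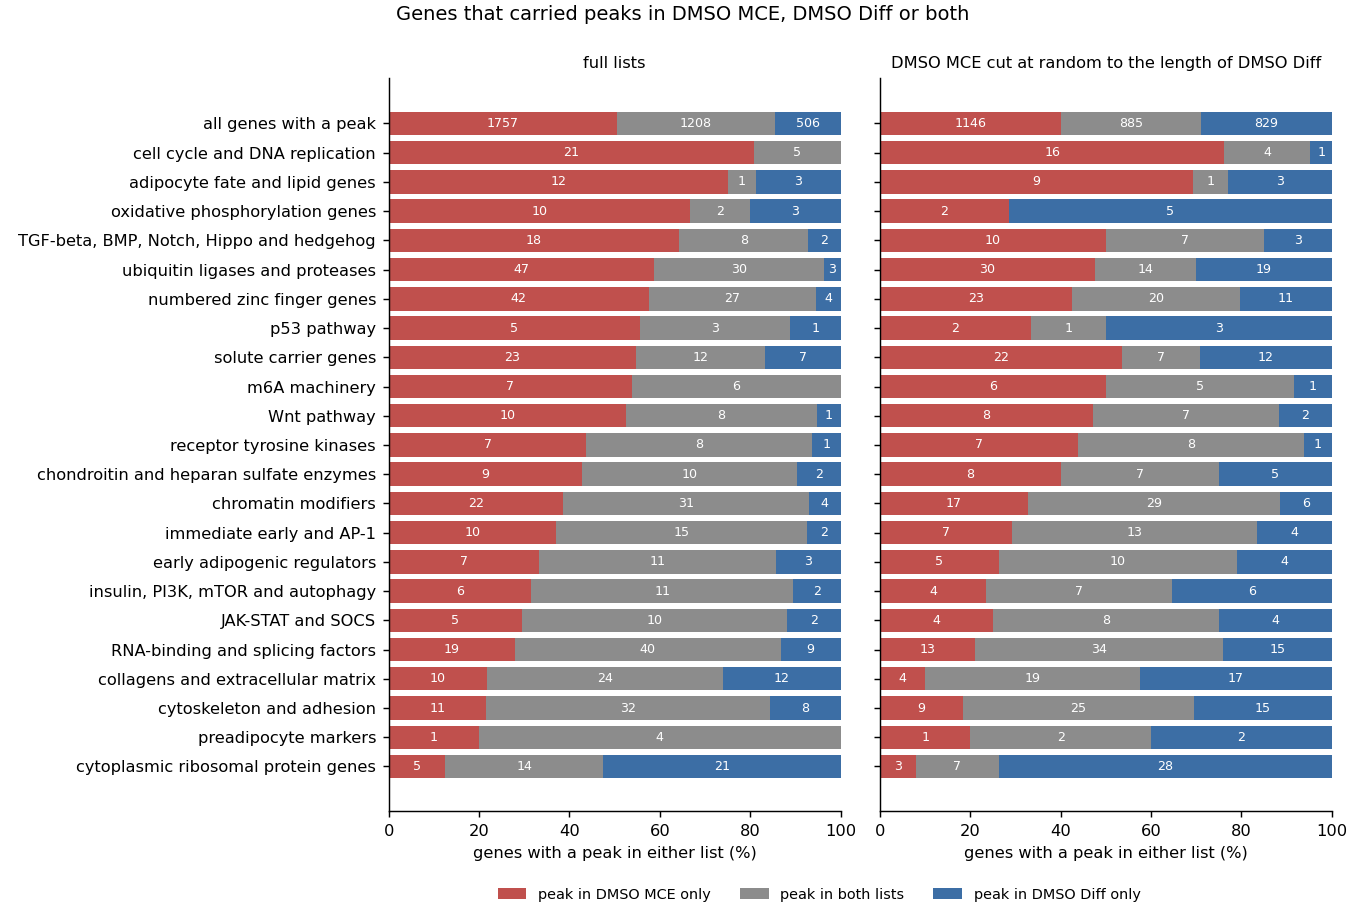
Genes with a peak in DMSO MCE only (red), in both lists (grey) and in DMSO Diff only (blue), as a share of the genes with a peak (horizontal axis, %; numbers of genes in the bars) for functional lists and for all genes, in the full lists (left) and with DMSO MCE cut at random (right). Cell cycle genes had 21 of 26 in DMSO MCE only and cytoplasmic ribosomal protein genes 21 of 40 in DMSO Diff only, against 50.6% and 14.6% of all genes.

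Cell cycle and DNA replication genes had peaks mainly in DMSO MCE. Of 91 genes on the list 26 had a peak, 21 of them in DMSO MCE only, 5 in both and 0 in DMSO Diff only, with 60 peaks in DMSO MCE and 13 in DMSO Diff. After the cut the numbers were 16, 4 and 1. With a score above 9.97 in both lists they were 4, 2 and 1, so that 57.1% were in DMSO MCE only, against 38.2% of all genes. GGAC was in 21 (35.0%) of the 60 DMSO MCE peaks. That was below the 49.2% of all peaks in DMSO MCE only and the 63.2% of shared peaks by DMSO MCE span. Mki67, the gene of the proliferation marker Ki-67, had more peaks than any other gene without a DMSO Diff peak, 9 in DMSO MCE, 0 in DMSO Diff, 0 in DMSO Pre and 3 in rhein MCE. The scores of these Mki67 peaks lay between 5.51 and 8.26, none of them high within the list. The chromosomal passenger gene Incenp and the cohesin gene Rad21 had 4 DMSO MCE peaks each and none in DMSO Diff, and Cdk4, the G1 kinase gene, had 3. Top2a, which encodes the topoisomerase of mitotic chromosomes, stood apart from these, with 10 peaks in DMSO MCE, 7 in DMSO Diff, 0 in DMSO Pre and 9 in rhein MCE, 4 of the 10 and 5 of the 7 being shared. The cell cycle transcription factor gene E2f1 had a shared CDS peak, on chromosome 2 from 154560607 to 154560831 in DMSO MCE (score 12.0) and from 154560632 in DMSO Diff (score 40.7). Ckap5 and Smc4, genes of a spindle protein and of condensin, also had shared peaks.

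In the full lists, genes of chromatin, of zinc fingers and of ubiquitin transfer were found in DMSO Diff only less often than the 14.6% of all genes, by count alone. Of 57 chromatin modifier genes with a peak 22 had it in DMSO MCE only, 31 in both and 4 in DMSO Diff only. Of 73 numbered zinc finger genes the numbers were 42, 27 and 4, and of 80 ubiquitin ligase and protease genes 47, 30 and 3. After the cut, DMSO Diff only held 6 of 52 chromatin genes (11.5%), 11 of 54 zinc finger genes (20.4%) and 19 of 63 ubiquitin genes (30.2%). The share of all genes was then 29.0%. In a second random draw the shares were 18.9%, 16.4% and 18.5%, against 29.6% of all genes, so for the ubiquitin list the draws differed. With a score above 9.97 in both lists they were 43.8%, 40.0% and 26.1%, against 34.2%. Under that score the chromatin and zinc finger lists were thus above all genes. The DNA methyltransferase gene Dnmt1, the remodeller gene Smarca4 and the E3 ligase gene Huwe1 had 4, 4 and 6 DMSO MCE peaks and none in DMSO Diff. Atrx, a chromatin remodeller gene on the X chromosome, had 8 peaks in DMSO MCE and 4 in DMSO Diff, of which 0 were shared.

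Peaks in genes of the immediate early response and of insulin signalling differed gene by gene. Of 27 immediate early and AP-1 genes with a peak, 10 had it in DMSO MCE only, 15 in both and 2 in DMSO Diff only, with 72 peaks in DMSO MCE and 35 in DMSO Diff. After the cut the genes were 7, 13 and 4, and the peaks 45 and 35. The full-list counts here are to be read against 50.6%, 34.8% and 14.6% of all genes, and against 4976 and 2840 placed peaks. Egr1, an early growth response factor gene, had 6 DMSO MCE peaks and none in DMSO Diff, while Socs3, a feedback inhibitor gene of cytokine signalling, had 7 and 2, both of the latter shared. Jun had 5 and 4. Rhob, a small GTPase gene, went the other way, with 0 and 4 peaks, one of which, on chromosome 12 from 8499261 to 8499460 in the CDS, had a score of 148 and ranked 6 in DMSO Diff. In DMSO Pre, however, Rhob had 3 peaks, and that DMSO Diff peak met a DMSO Pre peak. Irs2, the adaptor gene downstream of the insulin receptor, had 12 DMSO MCE peaks along its CDS and 3′ untranslated region (UTR), and 1 DMSO Diff peak, which was shared (chromosome 8, 11007686 to 11007935, score 13.6; 11007736 to 11007910, score 10.3). Irs2 had 0 peaks in DMSO Pre and 9 in rhein MCE. Further down the same pathway, the subunit gene Pik3r1 had 1 and 6 peaks. The 19 genes of insulin, PI3K, mTOR and autophagy with a peak had it in DMSO MCE only in 6 cases, in both in 11 and in DMSO Diff only in 2, and in 4, 7 and 6 after the cut. Among cytokine receptor genes Il6st had 10 and 6 peaks, Osmr 7 and 3 and Lifr 1 and 0.

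**Figure D3:**
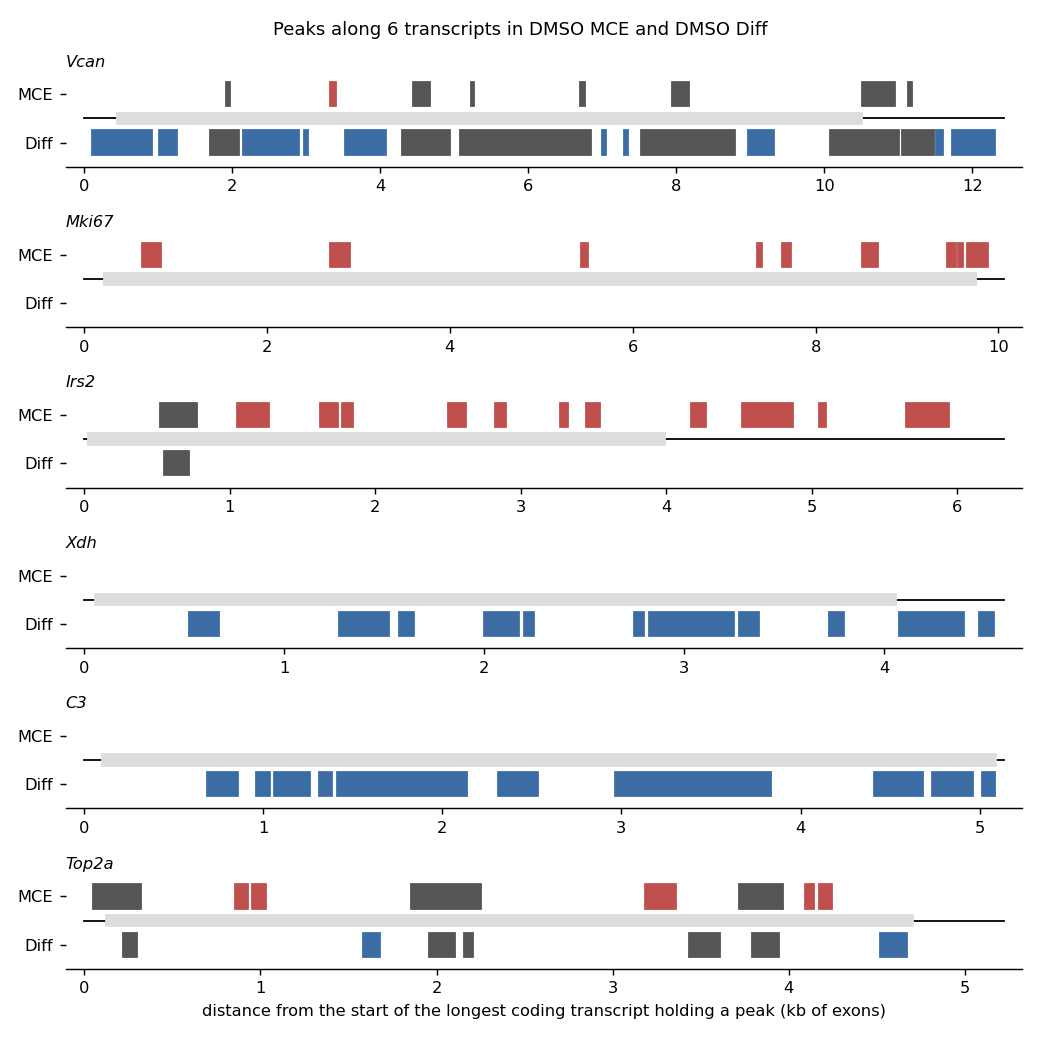
Peaks of DMSO MCE (above the line) and DMSO Diff (below) along the exons of 6 transcripts (horizontal axis, kb from the start of the transcript), with the CDS in light grey; shared peaks are dark grey, peaks found in 1 list only red or blue. Mki67 has peaks above the line only, Xdh and C3 below only, and Irs2 has 12 above against 1 below. Of the 28 Vcan peaks 25 and of the 17 Top2a peaks 15 could be drawn on the transcript chosen.

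In the full lists, the share of adipogenic and lipid genes with peaks in DMSO Diff only was near or above the 14.6% of all genes. After the cut it was 21.1% for early adipogenic regulators and 23.1% for lipid genes, below the 29.0% of all genes. In the second random draw the shares were 26.3% and 37.5%, against 29.6%. Of 21 early adipogenic regulator genes with a peak, 7 had it in DMSO MCE only, 11 in both and 3 (14.3%) in DMSO Diff only. Cebpb, which encodes a transcription factor active at the start of the program, had 4 peaks in DMSO MCE and 2 in DMSO Diff; the CDS and 3′ UTR peaks were shared, and the 5′ UTR peak (score 7.95) and an upstream CDS peak (score 18.1) of DMSO MCE were not. In Cebpd, the partner of Cebpb, the 3′ UTR peak on chromosome 16 from 15888036 to 15888510 (score 51.1, rank 44) was in DMSO MCE only, although also listed in DMSO Pre and rhein MCE, whereas both CDS peaks of DMSO MCE met a single DMSO Diff peak of 650 bases. Klf9 and Nr2f2, early regulator genes, had 4 and 4 and 4 and 3 peaks. Of 63 adipocyte fate and lipid genes 16 had a peak, 12 in DMSO MCE only, 1 in both and 3 (18.8%) in DMSO Diff only, and 9, 1 and 3 after the cut, or 4, 1 and 3 in a second random draw. Those of DMSO MCE included Hmgcs1, of cholesterol synthesis, with 4 peaks, and Acly and Acaca, of fatty acid synthesis, with 2 each. Those of DMSO Diff only included Rxra, the nuclear receptor partner of PPARγ, with 2, and Plin4, a lipid droplet coat gene, with 2, both of which met a DMSO Pre peak.

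Matrix genes carried more peaks in DMSO Diff, although that list was the shorter. The 46 collagen and extracellular matrix genes with a peak, of 80 listed, had 99 peaks in DMSO MCE and 152 in DMSO Diff. They had a peak in DMSO MCE only in 10 cases, in both in 24 and in DMSO Diff only in 12, or 4, 19 and 17 after the cut. Of the 24 genes with peaks in both, 22 had a shared peak. Sharing was more frequent than in the list as a whole for the DMSO MCE peaks of these genes, 54 of 99 against 26.2%, and less frequent for the DMSO Diff peaks, 54 of 152 against 46.1%. Vcan, the gene of the large proteoglycan versican, had 9 DMSO MCE peaks, 8 of them shared, and 19 DMSO Diff peaks. On chromosome 13 the Vcan span of DMSO Diff from 89691021 to 89692795 (1775 bases, rank 2) covered a pair of DMSO MCE peaks of 75 and 50 bases (ranks 33 and 145). Nid1, the gene of the basement membrane protein nidogen, had 12 and 16 peaks, of which 10 and 10 were shared. Col4a2 (basement membrane collagen) had 6 DMSO Diff peaks and none in DMSO MCE, as had Lamb1 (laminin), Col6a3 and Mmp19 with 5 each. Has2, the hyaluronan synthase gene, went the other way with 7 peaks in DMSO MCE, from the 5′ UTR to the 3′ UTR, and none in DMSO Diff, as did Ptn, the gene of the secreted growth factor pleiotrophin, with 7, of which the highest had a score of 51.1.

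**Figure D4:**
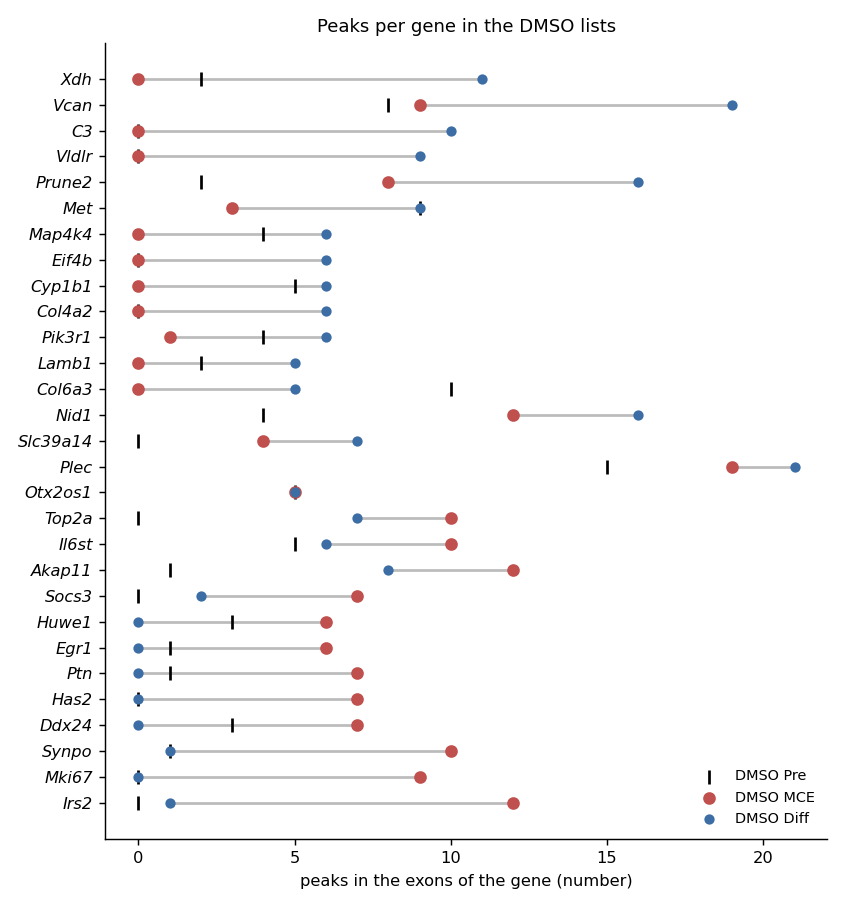
Number of peaks in the exons of each gene (horizontal axis) in DMSO Pre (black bar), DMSO MCE (red) and DMSO Diff (blue), for genes with many peaks in 1 or both lists. Irs2 has 12 against 1, Mki67 9 against 0, Vcan 9 against 19 and Xdh 0 against 11.

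The genes with most DMSO Diff peaks and none in DMSO MCE were Xdh with 11, C3 with 10, Vldlr with 9, and Map4k4, Cyp1b1, Eif4b and the Col4a2 given above with 6 each. Xdh encodes xanthine oxidoreductase, C3 the central complement component, Vldlr a lipoprotein receptor, Map4k4 a kinase, Cyp1b1 a cytochrome P450 and Eif4b an initiation factor. C3 had 0 peaks in DMSO Pre and 0 in rhein MCE, and its DMSO Diff peaks all lay in the CDS, with scores from 6.73 to 56.6. Those of Vldlr, with 0 peaks in the other lists, were of lower score, from 4.84 to 11.7. In contrast, Map4k4 and Cyp1b1 had had 4 and 5 peaks in DMSO Pre, so that for these DMSO MCE was the list without peaks. Xdh had had 2 in DMSO Pre and 0 in rhein MCE. Col6a3 had 10 in DMSO Pre, 0 in DMSO MCE and 5 in DMSO Diff, and the receptor tyrosine kinase gene Axl had 3, 0 and 4. Met, the hepatocyte growth factor receptor gene, had 9, 3 and 9.

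Cytoplasmic ribosomal protein genes had the largest share found in DMSO Diff only of the lists with any peak. Of 89 such genes 40 had a peak, 5 in DMSO MCE only, 14 in both and 21 in DMSO Diff only, and 3, 7 and 28 after the cut. They had 21 peaks in DMSO MCE and 51 in DMSO Diff. Of the 14 genes with peaks in both, 6 had a shared peak, and 4 of the 51 DMSO Diff peaks were shared, against 46.1% of the list. Rpl22 had a 3′ UTR peak on chromosome 4 from 152332311 to 152332535 (score 34.7, rank 98), and Rpl13a, Rps28 and Rpl11 had 2 DMSO Diff peaks each. Of the 51 peaks 23 lay on noncoding transcripts of these genes, and 12 (23.5%) held GGAC. Ribosomal protein genes have many near-identical processed copies in the genome, so their peaks are given as uncertain. Oxidative phosphorylation genes had few peaks, with 15 of 107 genes, 10 in DMSO MCE only, 2 in both and 3 in DMSO Diff only; after the cut the numbers were 2, 0 and 5, but 8, 2 and 3 in the second random draw.

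The m6A machinery itself had 35 peaks in DMSO MCE and 8 in DMSO Diff, against 4976 and 2840 placed on all genes. After the cut the machinery had 25 and 8, against 2861 and 2840. Its DMSO MCE peaks had a median score of 6.96, against 7.18 in the whole list. Of 13 genes with a peak 7 (53.8%, against 50.6% of all genes) had it in DMSO MCE only, 6 in both and 0 in DMSO Diff only, and 6, 5 and 1 after the cut. Of the subunit genes of the methyltransferase complex, Rbm15b with 6 peaks and Virma with 3 were in DMSO MCE only, whereas Zc3h13 had 3 and 1 with 1 shared in each. Also in DMSO MCE only were the nuclear reader genes Hnrnpa2b1 with 3 and Ythdc1 with 2 and the demethylase gene Fto with 1. Alkbh5, the other demethylase gene, had 4 and 2 peaks with 0 shared. The cytoplasmic readers had a shared peak each, with 2 and 2 peaks in Ythdf1, 2 and 1 in Ythdf2 and 3 and 1 in Ythdf3. Mettl3, Mettl14 and Wtap had none in either list.

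The signalling and structural genes of the other lists were counted in the same way, and are to be read against 50.6%, 34.8% and 14.6% of all genes. Of 19 Wnt pathway genes with a peak 10 had it in DMSO MCE only, 8 in both and 1 in DMSO Diff only, and of 28 genes of TGF-beta, BMP, Notch, Hippo and hedgehog signalling 18, 8 and 2. The Wnt receptor gene Fzd1 and the hedgehog effector gene Gli2 had 5 DMSO MCE peaks each and none in DMSO Diff, whereas Gas1, of hedgehog signalling, had 5 and 6, mostly shared. Of 51 cytoskeleton and adhesion genes 32 had peaks in both, 11 in DMSO MCE only and 8 in DMSO Diff only. Plec, the gene of the cross-linker plectin, had the most peaks of any gene, 19 and 21, of which 12 and 17 were shared. The best-ranked Plec peak of each list, taken separately and not matched by place, ranked 4 of 5128 in DMSO MCE and 292 in DMSO Diff. Synpo, the gene of an actin-associated protein, had 10 and 1. Of 68 RNA-binding and splicing factor genes 40 had peaks in both, 19 in DMSO MCE only and 9 in DMSO Diff only. Other lists gave 5, 3 and 1 for p53 pathway genes, 9, 10 and 2 for chondroitin and heparan sulfate enzymes, 7, 8 and 1 for receptor tyrosine kinases, 5, 10 and 2 for JAK-STAT and SOCS genes, 23, 12 and 7 for solute carrier genes and 1, 4 and 0 for preadipocyte markers, in the same order. None of 16 markers of other cell types had a peak as placed here. With the gene symbols given in the lists, 2 of them had one, in DMSO MCE only.

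Shared peaks recurred in the lists that the rule had not used. Of the shared DMSO MCE peaks 55.6% also met a DMSO Pre peak and 65.4% (62.8 to 67.9) a rhein MCE peak. For peaks in DMSO MCE only these shares were 14.0% (13.0 to 15.2) and 20.6% (19.3 to 21.9), and for peaks in DMSO Diff only 20.4% (18.5 to 22.5) and 19.0%. Neither DMSO Pre nor rhein MCE held 71.4% (70.0 to 72.8) of the peaks in DMSO MCE only, 67.3% (65.0 to 69.6) of those in DMSO Diff only and 21.2% (19.1 to 23.5) of the shared ones. Thus 324 DMSO Diff peaks had a partner in DMSO Pre and none in DMSO MCE. Of the genes with peaks in DMSO Diff only, 31.0% (27.2 to 35.2) had a peak in DMSO Pre, against 22.7% (20.8 to 24.7) of those in DMSO MCE only and 64.6% (61.8 to 67.2) of those in both. The shared DMSO MCE peaks were longer than those in DMSO MCE only, with medians of 200 and 100 exonic bases. They were also higher in score, with medians of 9.49 and 6.85. A longer span meets another more easily, and recurrence at equal length and score was not tested.

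Along the transcript, the shared peaks lay closer to the end of the CDS. Within 200 bases of it were the midpoints of 28.4% (25.9 to 31.1) of the shared peaks by their DMSO MCE span and 27.1% (24.6 to 29.7) by their DMSO Diff span. The share was 23.1% (21.7 to 24.5) for peaks in DMSO MCE only and 20.0% (17.9 to 22.3) for those in DMSO Diff only. Placement of the same lengths at every position of the same transcripts gave 11.3%, 11.4%, 12.7% and 11.7% in that order, so every class exceeded it. The 5′ UTR held 7.83% (6.97 to 8.79) of the peaks in DMSO MCE only and 6.10% (4.89 to 7.58) of those in DMSO Diff only, with overlapping intervals, against 5.85% (4.64 to 7.35) of the shared peaks by DMSO MCE span. With the part of the transcript listed by the authors the 5′ UTR shares were 11.2% (10.2 to 12.3) and 8.51% (7.24 to 9.99), whose intervals do not overlap. CDS shares lay between 52.8% and 54.9% in every class and 3′ UTR shares between 38.6% and 41.4%.

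**Figure D5:**
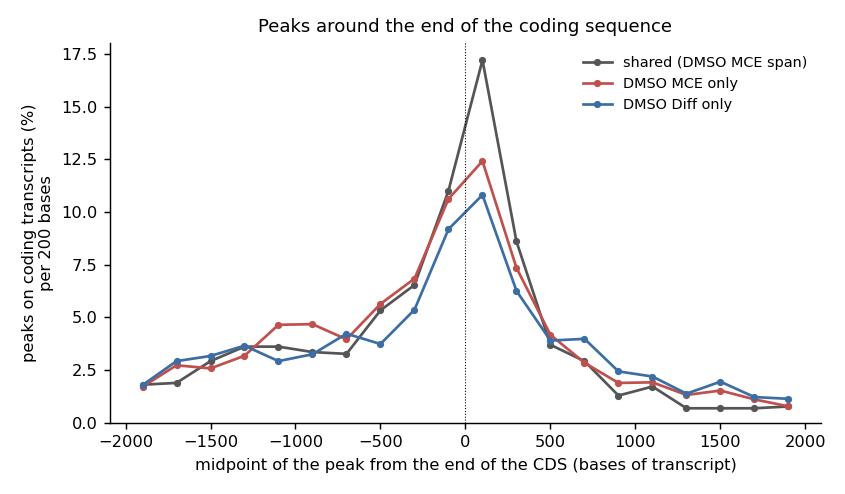
Midpoints of peaks on coding transcripts relative to the end of the CDS (horizontal axis, bases of transcript; positive values are in the 3′ UTR), as the share of peaks of each class per 200 bases (vertical axis, %). Shared peaks have the highest maximum, and the share within 200 bases on either side is 28.4% for shared peaks, 23.1% for those in DMSO MCE only and 20.0% for those in DMSO Diff only.

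The sequence under the peaks differed between the classes. GGAC, searched on the transcribed strand, was in 63.2% (60.5 to 65.7) of the shared peaks by DMSO MCE span, and in 48.2% of all windows of the same length on the same transcripts, 1.31 times as many. Peaks in DMSO MCE only held it in 49.2% (47.6 to 50.9) against 37.6% of windows, also 1.31 times. In windows of 100 bases around the midpoints, where length is equal, the classes were apart, at 1.72 times for shared peaks, 1.46 for those in DMSO MCE only and 1.21 for those in DMSO Diff only. Peaks in DMSO Diff only held it in 37.6% (35.2 to 40.0) against 33.5%, or 1.12 times at their own length, with the window share below the interval. The longer GGACT, which contains GGAC, was 1.72, 1.54 and 1.24 times as frequent as in the windows, in 32.8%, 19.5% and 13.3% of the peaks. For peaks in the UTRs or CDS of coding transcripts the GGAC ratios were 1.32, 1.33 and 1.13 for shared peaks, those in DMSO MCE only and those in DMSO Diff only. Of the peaks in DMSO Diff only, those that also met a DMSO Pre peak held GGAC in 46.9% (41.4 to 52.5) against 39.6% of windows, and the rest in 35.2% (32.5 to 37.9) against 32.0%. Of the related tetramers, AGAC was at 1.11, 1.11 and 1.08 times, GAAC at 1.11, 1.06 and 1.06 and AAAC at 1.04, 1.01 and 1.05, so that in DMSO Diff only GGAC at 1.12 was little above AGAC at the peaks' own length. In the windows of 100 bases the values for DMSO Diff only were 1.21 for GGAC, 1.13 for AGAC, 1.08 for GAAC and 1.08 for AAAC.

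Noncoding RNA took more of DMSO Diff. Of the peaks in DMSO Diff only 18.5% (16.6 to 20.5) lay on noncoding transcripts, against 8.91% (8.03 to 9.88) in DMSO MCE only and 11.8% (10.1 to 13.6) of the shared DMSO MCE peaks. Small nuclear RNA genes, such as the many near-identical copies of the U6 spliceosomal RNA, held 118 DMSO MCE peaks and 160 DMSO Diff peaks, 79 of each shared; reads of such copies cannot be assigned with certainty. Noncoding transcripts of protein-coding genes held 7.09% (5.90 to 8.50) of the peaks in DMSO Diff only and 4.29% of those in DMSO MCE only, and 13 and 1 peaks of these classes overlapped small nucleolar RNAs. The long noncoding RNA Otx2os1 had 5 peaks in each list, 5 and 5 shared, with identical spans; in DMSO MCE 5 of them had scores between 77.1 and 77.4.

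The peaks of highest score give the extremes of each class. The highest shared pairs outside small nuclear RNA genes lay in Pde10a, a phosphodiesterase gene, in Mdm2, which encodes the ligase that degrades p53, and in Hspa5, the endoplasmic reticulum chaperone gene. Mdm2 had its shared CDS peak on chromosome 10 from 117690150 to 117690299 in DMSO MCE (score 75.5, rank 15) and from 117690175 to 117690424 in DMSO Diff (score 183, rank 4). Hspa5 had its pair at the end of the CDS, with ranks of 16 and 9. Vcan, Col6a1, Otx2os1 and the small nuclear RNA genes Gm24144 and Gm23412 held the others. In DMSO MCE only, the peaks of high score lay in the antisense RNA Gm28154 (score 61.0, rank 28), in Ahnak (57.0), in Gnas, the stimulatory G protein gene (55.8), in Ptn, Cebpd, the matrix gene Tnxb (45.6) and Plec (43.5). In DMSO Diff only they lay in the antisense RNA 4930488L21Rik (score 675, rank 1), in the collagen gene Col6a1 (156), in Rhob, the small nuclear RNA gene Gm23092 (109.6), Mterf4 (81.0), Vcan (80.4), Uso1 (76.4) and Col6a2 (73.4). Thus 3 of these 8 genes, Col6a1, Col6a2 and Vcan, were matrix genes, and 27 DMSO MCE peaks ranked above the first one without a partner. Of these DMSO Diff peaks, all but those of 4930488L21Rik and Uso1 also met a DMSO Pre peak, so DMSO MCE was the DMSO list without them. That compares with 20.4% of all peaks in DMSO Diff only. Of the DMSO MCE peaks named, those in Ahnak, Ptn, Cebpd, Tnxb and Plec met a DMSO Pre peak, against 14.0% of all peaks in DMSO MCE only. Both sets were picked by score, and many of their spans were long. The DMSO Diff peaks that met DMSO Pre had 100 (Gm23092) to 750 (Vcan) exonic bases. Those of 4930488L21Rik and Uso1 had 75 and 50. The DMSO MCE peaks that met it had 200 (Plec) to 950 (Tnxb). The median was 100 in each class. A longer span meets another more easily, and recurrence at equal length and score was not tested.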

How the data were processed

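Per the methods of the study and the submitters' processing notes, the authors trimmed reads with Trim Galore 0.6.5, aligned them to mm10 with HISAT2 2.1.0, removed duplicates with Picard 2.23.5 and reads of mapping quality below 30 with SAMtools 1.9. Peak calling used exomePeak2 without changed settings, and ChIPseeker 1.26 gave the annotation. Which IP and input entered each call is not given in the sources used here. The only value in the deposited lists is a column headed log2 fold change, which reaches 675 in DMSO Diff and was therefore used as a score to rank peaks, in the way of minus log2 of an adjusted p-value; no enrichment or read number was at hand, so depth and its effect on list length could not be corrected.

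Each peak was placed on a GENCODE M21 transcript of the same strand with both ends in exons, coding transcripts first, then the longest. This placed 97.0% of the DMSO MCE and 96.5% of the DMSO Diff peaks; 98.3% and 97.8% of these had an exonic length divisible by 25 bases, the bin size of the caller. Gene symbols of the authors were replaced, since 27.1% and 29.1% named another gene. The placing and sharing steps were tested on simulated data. Sharing, the random cut (seed 29), Wilson intervals and motif windows were computed with SciPy 1.17.1, NumPy 2.4.6 and pandas 2.3.3 (Python 3.11.15), and plots drawn with Matplotlib 3.10.9.

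The comparison, the gene lists and the genes of interest were chosen with earlier results of these data known. Named genes were the 8 peaks of highest score per class, 1 per gene, the 6 genes with most peaks in DMSO MCE only, in DMSO Diff only or shared, up to 4 genes per gene list and class by number of peaks, and 14 genes of adipogenesis and m6A. Lists are described by counts, with no set test. The rhein Diff list was not used, and a few genes and 1 gene list that these rules name are not reported here. The alternatives tried were exonic overlap, overlap of 50% of the shorter span, random and score cuts of DMSO MCE, a stricter score, spans above 1000 bases left out, the symbol and part given in the lists, and 100-base motif windows.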

Additional observations from a re-analysis of the deposited data

How the results depend on the processing

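With a random cut, the share of DMSO Diff peaks shared was 26.0%, and 27.1% with another seed; genes in DMSO MCE only numbered 1146 and 1147, and genes in DMSO Diff only 829 and 846. With the highest-scoring DMSO MCE peaks kept, the shares were 38.9% of DMSO MCE and 40.0% of DMSO Diff, and 906 genes had peaks in DMSO MCE only. With a score above 9.97 in both lists, an adjusted p-value of 0.001 if the score is read that way, 965 and 912 peaks remained, the shares were 30.8% and 31.7%, and 401 genes had peaks in DMSO MCE only and 290 in both; there the genes in DMSO Diff only, 359, were nearly as many. The shares stayed within their intervals, and the gene counts within 1.5 times where they were recomputed, with exonic overlap, with 50% of the shorter span, without spans above 1000 bases, with the symbol of the lists where it applied and without small nuclear RNA peaks, an alternative chosen after seeing the data. Of 288 further values for gene lists, parts and motif, 204 stayed within the interval of the main value and 84 did not, 30 of these under the stricter score, 13 and 14 under the random cuts, 16 with the highest scores kept and 7 with the part listed by the authors. Of the 204, 46 came from leaving out small nuclear RNA peaks. None of those peaks lay in a gene of the lists, so these 46 values could not move and say nothing on stability. After the random cut the order of DMSO MCE only and DMSO Diff only changed in 7 lists, those of p53, cytoskeleton, RNA-binding, insulin, JAK-STAT (to equal numbers), preadipocyte and oxidative phosphorylation genes. The second random draw gave another order for chondroitin and heparan sulfate enzymes (2, 6 and 6) and solute carriers (11, 6 and 13), equal numbers for early adipogenic regulators (5, 9 and 5), and the order of the full lists for p53, preadipocyte and oxidative phosphorylation genes, so the cut gives no firm count for small lists. Cell cycle, matrix and ribosomal protein genes had the same order in both draws. No paired analysis was possible because each condition had 1 IP and 1 input and no result came from a test.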
